A study of Mus musculus with 35 samples.

Results

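The cytosolic ribosomal protein genes were taken from the bulk RNA-seq table by symbol: Rpl or Rps followed by a number, with or without a closing a, x or l, together with Rplp0, Rplp1, Rplp2 and Rpsa. This gave 83 of 54446 genes, of which 51 carried symbols of the large subunit and 32 symbols of the small subunit. Rows named as numbered pseudogenes (-ps) were not taken. Of the 83, 80 were annotated as protein-coding and 76 as protein-coding and autosomal, spread over 18 autosomes, and 4 lay on the X chromosome (Rpl10, Rpl36a, Rpl39 and Rps4x). The symbols of 7 members end in l (Rpl3l, Rpl10l, Rpl39l, Rps27l, Rps4l, Rpl6l and Rpl32l). These are relatives of a standard ribosomal protein gene, and Rps4l, Rpl6l and Rpl32l are annotated as processed pseudogenes. The other 76 are called the standard members here.

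The ribosome translates mRNA. Its small subunit reads the codons and its large subunit joins the amino acids, and both are built from ribosomal RNA and ribosomal proteins in fixed proportions. The mRNAs of these proteins are among the most abundant in dividing cells, and many begin with a run of pyrimidines at the cap, the 5′ terminal oligopyrimidine tract, through which mTORC1 signaling controls their translation. Because they are so abundant in the germline, they have left many processed copies in mammalian genomes. Some copies are expressed, such as Rpl10l, which serves in the male germline where the X-linked Rpl10 is silenced.

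The table held 27 libraries in 9 groups of 3. The 15 in vivo libraries came from untreated wild-type mouse embryos, labeled as strain CD-1: the inner cell mass (ICM) at embryonic day 3.5 (E3.5) and the epiblast at 4 later stages, 1 day apart from E4.5 to E7.5. The study's methods also name Pdgfra:H2B-GFP matings as a source of embryos, and at E4.5 they use that line to pick GFP-negative epiblast cells. They describe pools of embryos, with the E3.5 ICM cut by laser and the E4.5 epiblast isolated by immunosurgery and dissociation. Epiblasts from E5.5 on were dissected by hand. The 12 in vitro libraries, all labeled wild-type, came from epiblast-like cells (EpiLCs, embryonic stem cells kept for 48 h in FGF2-ActivinA), 2D epiblast stem cells (EpiSCs, converted from embryonic stem cells with FGF2-ActivinA), and 3D EpiSCs grown in Matrigel with FGF2-ActivinA-XAV-Noggin. The 3D EpiSCs were derived either from embryonic stem cells or from E5.5 epiblasts, the latter of LifeAct-GFP and CD1 embryos per the methods, so that origin and genetic background change together. Medium and dimension also change together between 2D and 3D EpiSCs. Between 2D and embryo-derived 3D EpiSCs, origin and genetic background change as well. The labels do not say whether replicates were separate cultures, so p-values measure the spread between these libraries, which may be technical.

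Values are TPM, transcripts per 1000000, which divide by transcript length and sum to the same total in each library. Sequencing depth cannot be read from them. In vivo libraries were made from total RNA after removal of ribosomal cDNA, and in vitro libraries by poly-A capture. Culture and embryo therefore cannot be told apart from the library kit, and they were fitted separately. In bulk RNA, fewer cells of a type and less RNA per cell cannot be told apart. Markers of other cell types were present in several groups. The epiblast list (Pou5f1, Nanog, Sox2, Utf1, Tdgf1, Otx2, Fgf5 and Dnmt3b) summed to 3380-3577 TPM at E5.5, 2695-3121 TPM at E6.5 and 819.2-863.1 TPM at E7.5. The streak and mesoderm list of 6 genes summed to 150.4-195.6 TPM at E6.5 and 222-226.6 TPM at E7.5, where T stood at 93.1-98.4 TPM, and Mesp1 went from 48.87-73.28 TPM at E6.5 to 13.34-14.6 TPM. The trophectoderm list of 8 genes summed to 3117-3179 TPM at E3.5, 2774-2952 TPM at E4.5 and 331-365.2 TPM at E5.5. At E4.5 Krt18 stood at 1603-1744 TPM, Elf5 at 124-130 TPM and Nanog at 11.3-18.9 TPM. The lists were split: Cdx2 went from 157.1-168.4 TPM at E3.5 to 22.2-26.28 TPM at E4.5. Of the 7 trophectoderm markers tested 3 rose and 3 fell at E4.5, and of the 8 epiblast markers 4 rose and 3 fell. The levels of Krt18, Elf5 and Nanog go in part against the label of the E4.5 libraries. These libraries are called E4.5 epiblast only as labeled, and every step into or out of E4.5 rests on them. The endoderm list of 10 genes summed to 155.1-181.8 TPM at E4.5, 693.2-746.9 TPM at E5.5, 1128-1155 TPM at E6.5 and 1213-1239 TPM at E7.5, so that the libraries labeled epiblast from E5.5 on also held visceral endoderm markers such as Apoa1 (346.4-376.5 TPM at E5.5).

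Together the 83 members held 8.30-9.59% of all TPM in the 15 in vivo libraries and 12.8-16.4% in the 12 in vitro libraries. The summed level was 8.53% ± 0.22 (SD, n = 3) at E3.5, 9.27% ± 0.21 at E4.5, 8.69% ± 0.19 at E5.5, 9.12% ± 0.42 at E6.5 and 9.41% ± 0.15 at E7.5. In culture it was 14.6% ± 1.2 in EpiLCs, 13.1% ± 0.28 in 2D EpiSCs, 15.6% ± 1.0 in ESC-derived 3D EpiSCs and 13.8% ± 0.89 in embryo-derived 3D EpiSCs. The 3 libraries at E4.5 lay above the 3 at E3.5 and the 3 at E5.5, and the in vivo stages differed by about 1 percentage point at most. The order of E6.5 and E7.5 turned when the 76 autosomal protein-coding members were taken as a share of autosomal protein-coding TPM. These stages then stood at 14.8% and 13.7%, and E7.5 was the lowest stage. The ESC-derived 3D and the EpiLC libraries all lay above the 2D libraries, whereas the embryo-derived 3D libraries overlapped with both the 2D and the EpiLC libraries. Of the 100 genes with the highest TPM, 39-56 were members in vivo and 53-60 in vitro.

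**Figure D1:**
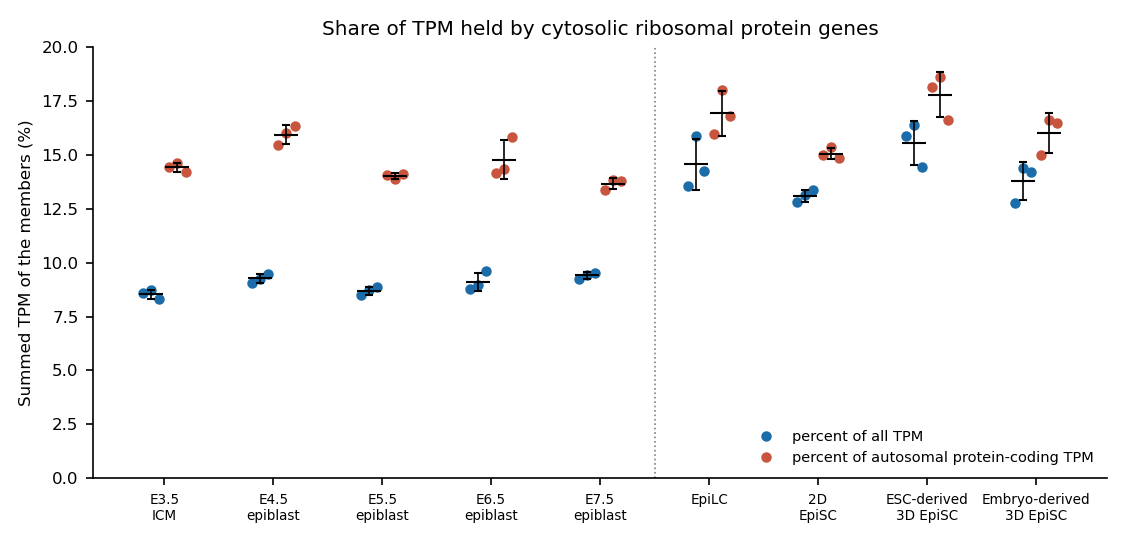
Summed TPM of the 83 members in each library as percent of all TPM (blue). Red shows the 76 autosomal protein-coding members as percent of the TPM of autosomal protein-coding genes. Points are libraries, bars the mean and SD of 3, and the dotted line separates in vivo from in vitro groups. Against all TPM the in vivo libraries sit at 8.30-9.59% and the in vitro libraries at 12.8-16.4%, and against autosomal protein-coding TPM both ranges move closer, to 13.4-16.3% and 14.9-18.6%.

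Every standard member was above 100 TPM in every library, from 119.2 TPM (Rps15a) to 5474 TPM (Rplp1). The 5 with the highest mean level over the groups were Rplp1, of the acidic stalk that recruits elongation factors, Rpl23a, near the exit of the nascent chain, Rpl8, Rpl13a and Rpl19. The 5 lowest were Rps15a, Rpl29, Rps20, Rpl15 and Rpl30. Levels of a given member moved little: the in vivo group means spanned less than 1 log2 unit for 70 of the 76, with a median span of 0.43, and the in vitro means did so for all 76, with a median span of 0.31. Rpsa, the small-subunit protein also known as the laminin receptor, had the narrowest range over all 9 groups, 0.32 log2 units. Its libraries ran from 1917 TPM at E5.5 to 2892 TPM at E4.5. Rpl5, which binds Mdm2 together with Rpl11, and Rps27a, a fusion with ubiquitin, were not called in any comparison.

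Promoters of 61 of the 83 members were found in RefSeq (GRCm38.p6), as 250 bases before and 50 after the start site. A run of 5 or more pyrimidines over the annotated start site was present in 34.4% of them, against 11.8% of the promoters of 27025 genes, and a C stood at the start site in 32.8% against 18.9%. CCGGAA, the core of the GABPA and ETS motif, was found on either strand in 54.1% against 16.7%, AAGATGG, the core of the YY1 motif, in 14.8% against 7.3%, and GGGCGG, a GC box, in 59% against 38.2%. TATAAA was found in 11.5% against 15.7% and CCAAT in 31.1% against 41.1%. These shares depend on where RefSeq sets the start and say nothing of factors bound in these cells. The start windows of Rps27 and Rpl7a are shown as examples, with the pyrimidine run in capitals, for Rps27 at chr3:90213634-90213663 on the minus strand and for Rpl7a at chr2:26910792-26910821 on the plus strand (GRCm38).
Rps27: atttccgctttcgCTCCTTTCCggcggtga
Rpl7a: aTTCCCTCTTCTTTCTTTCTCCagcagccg

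Among the members with symbols ending in l, Rpl10l, Rpl39l and Rps4l changed by far more in culture than any standard member. In vivo the group means of Rpl10l and Rpl39l also spanned more, 6.61 and 4.53 log2 units. The in vivo span of Rps4l, 1.92, was below that of the standard member Rpl29, 2.53. Rpl10l, Rpl39l and Rps4l were all highest in the earliest in vivo stages and in EpiLCs, and every EpiSC library lay below every EpiLC library. Their sequences can be told from their relatives by short reads: Rpl10l differs from Rpl10 at 98 of 642 coding bases, Rpl39l from Rpl39 at 22 of 152, and Rps4l from Rps4x at 157 of 783 aligned bases, with longest identical stretches of 23, 38 and 35 bases. One window of 30 coding bases is shown for each pair, with the differing bases in capitals. They lie at chrX:74271800-74271829 (plus strand) for Rpl10 and chr12:66284246-66284275 (minus) for Rpl10l, at chrX:37084059-37084088 (minus) for Rpl39 and chr16:10174313-10174342 (plus) for Rpl39l, and at chrX:102188327-102188356 (minus) for Rps4x and chr6:148354728-148354757 (plus) for Rps4l, all in exons.
Rpl10: atgcTaagatccgAatctttgaTTtgggAc
Rpl10l: atgcGaagatccgCatctttgaCCtgggTc
Rpl39: TcttctcacaagacTttcCgAatcaagcga
Rpl39l: GcttctcacaagacCttcAgGatcaagcga
Rps4x: aaacacctgaagcgtgtAgcTgcTccaAAA
Rps4l: aaacacctgaagcgtgtGgcGgcCccaCGC

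Rpl10l is an intronless gene (chr12:66283379-66284401) that codes for a paralogue of the large-subunit protein Rpl10. It stood at 110.8, 105.7 and 105.9 TPM at E3.5, at 56.97, 55.87 and 37.15 TPM at E4.5, and at 9.387, 9.053 and 7.845 TPM at E5.5. It then stood at 5.377, 6.29 and 2.396 TPM at E6.5 and at 0.2182, 0 and 0.1157 TPM at E7.5. At each step the libraries of the later stage were all below those of the earlier stage. By limma on log2(TPM + 1), with p adjusted over all genes tested by Benjamini-Hochberg, it fell by 1.11 at E4.5 (SE 0.23, adjusted p = 0.00117), by 2.36 at E5.5 (SE 0.23, adjusted p = 1.04e-06), by 0.85 at E6.5 (SE 0.23, adjusted p = 0.034) and by 2.29 at E7.5 (SE 0.23, adjusted p = 3.84e-06). The call at E6.5 was lost without any 1 of 4 of the 6 libraries, with an adjusted p up to 0.104. Rpl10l made up 7.79-10.8% of the sum of Rpl10 and Rpl10l at E3.5 and 0-0.0184% at E7.5. In EpiLCs it stood at 40.24, 72.53 and 66.69 TPM, and it was listed at 0 in all 2D EpiSC and embryo-derived 3D EpiSC libraries and at 0.127 TPM in 1 ESC-derived 3D library. The difference of 2D EpiSCs from EpiLCs had an adjusted p of 4.71e-10. Rpl10 itself was not called in any of the 8 comparisons.

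Rpl39l (chr16:10170226-10174911) is a paralogue of the small large-subunit protein Rpl39 at the exit tunnel. In vivo it also went down from E3.5 to E7.5, at levels below those of Rpl10l up to E6.5. It stood at 25.44, 22.43 and 23.12 TPM at E3.5 and at 17.24, 29.63 and 17.77 TPM at E4.5, which overlapped. It stood at 1.66, 1.104 and 1.034 TPM at E5.5, at 0.66, 1.592 and 1.565 TPM at E6.5, and at 0.2166, 0 and 0 TPM at E7.5. The steps to E5.5 (fell by 3.28, SE 0.21, adjusted p = 1.18e-08) and to E7.5 (fell by 1.06, SE 0.21, adjusted p = 0.000881) passed the test. EpiLCs held the highest values of the series, 52.13, 122.1 and 174.5 TPM, or 6.35-17.9% of the sum of Rpl39 and Rpl39l, and all 9 EpiSC libraries were listed at 0 (adjusted p = 1.37e-08 for 2D EpiSCs against EpiLCs). Rpl39 fell by 0.35 at E5.5 (adjusted p = 0.0105) and was not called elsewhere in a fit of all genes past the filter, which is the fit that holds the X-linked members and the pseudogenes.

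Rps4l (chr6:148354656-148355598) is an intronless transcribed pseudogene related to Rps4x, the X-linked small-subunit protein S4. It stood at 531.4, 521 and 480 TPM at E3.5, 431.1, 412.1 and 406.4 TPM at E4.5, 285.5, 309 and 331.9 TPM at E5.5, 312.7, 276.6 and 235.4 TPM at E6.5, and 134.9, 129 and 140.1 TPM at E7.5. It fell by 0.29 at E4.5 (adjusted p = 0.0326), by 0.43 at E5.5 (adjusted p = 0.0032) and by 1.02 at E7.5 (adjusted p = 7.81e-06), while the log2 difference at E6.5 was -0.17 (adjusted p = 0.313). In culture the groups ranged widely. EpiLCs held 985.3, 1207 and 824.5 TPM, 2D EpiSCs 147, 146 and 120.7 TPM, ESC-derived 3D EpiSCs 376.6, 380.5 and 156.2 TPM, and embryo-derived 3D EpiSCs 0.0643, 0.673 and 1.25 TPM. No 2 of these groups overlapped. Rps4l fell by 2.85 in 2D EpiSCs from EpiLCs (adjusted p = 3.94e-05), was 6.44 lower in embryo-derived 3D than in 2D EpiSCs (adjusted p = 3.35e-07) and differed by 7.48 between the 3D EpiSCs, where the ESC-derived cells held more (SE 0.34, adjusted p = 1.22e-07). Rps4x was not called in any comparison, with log2 differences of at most 0.16 in size.

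Rps27l, a paralogue of the small-subunit protein Rps27 that is known as a p53 target, was steady within each arm, at 125.1-214.1 TPM in vivo and 553.5-743.8 TPM in vitro, and it was not called in any comparison. Rpl3l, which is known from striated muscle, reached at most 1.645 TPM, in an EpiLC library, and was the only autosomal protein-coding member that did not pass the filter on low values. Rpl6l, at 84.85-196.2 TPM, and Rpl32l, at 2.136-19.71 TPM, are 98.7% and 96% identical to Rpl6 and Rpl32, so that reads of the parent can fall on them. Their values are uncertain for that reason, and neither was called.

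**Figure D2:**
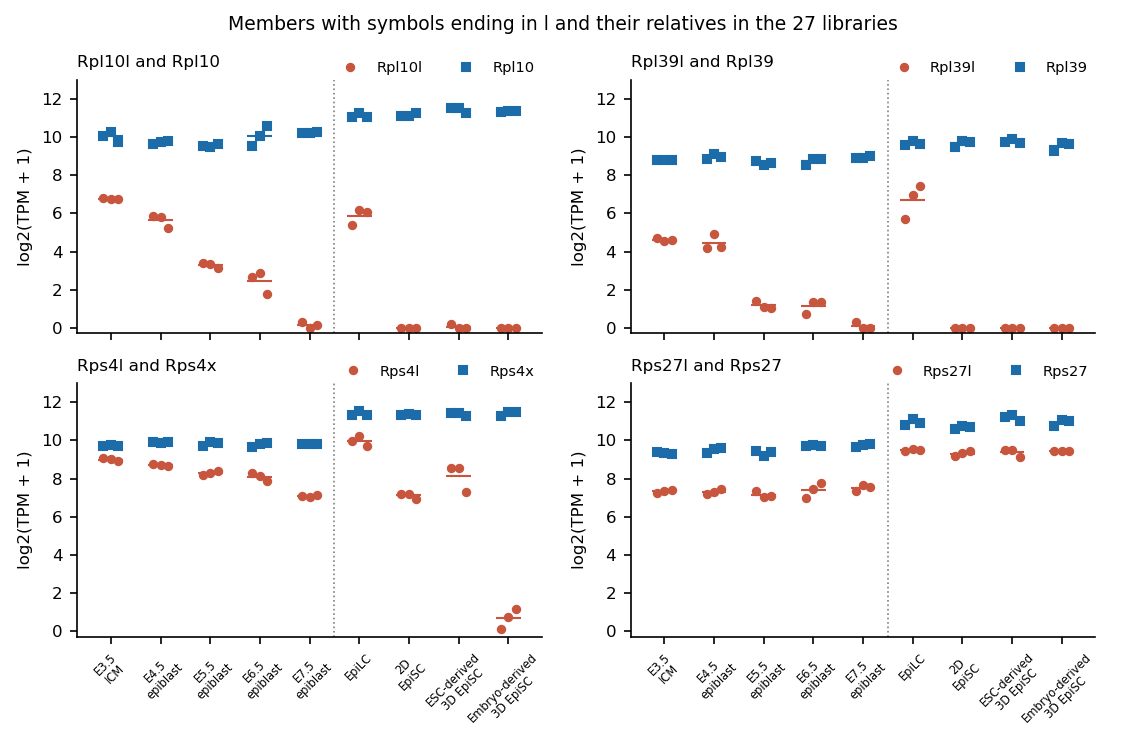
log2(TPM + 1) of 4 members with symbols ending in l (red circles) and of their relatives (blue squares) in the 27 libraries; horizontal lines are group means and the dotted line separates in vivo from in vitro groups. Rpl10l and Rpl39l drop from E3.5 to E7.5, are high in EpiLCs and lie at or near 0 in EpiSCs, Rps4l is near 0 only in the embryo-derived 3D EpiSCs, and the relatives change little within each arm.

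Near-identical copies elsewhere in the genome bear on the values of the standard members. Alignment of the coding sequences found 938 other gene models with at least 90% identity over at least 80% of a member's coding sequence, of which 920 are annotated as pseudogenes. They belong to 74 of the 83 members, with a median of 7 per member and the highest numbers for Rpl21 (75), Rpl7a (70), Rpl29 (56) and Rps2 (46). Of the copies, 517 were above 2 TPM and 150 above 50 TPM in at least 1 library, and together they amounted to 15.3-25.1% of the TPM of the members. Rpl8, Rplp2 and Rps3 are among the standard members without such a copy. How the authors' quantification divided reads between identical stretches was not tested. As an alternative chosen after seeing the data, each member's TPM was summed with that of its copies and the fits were repeated.

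The pairs that matter most for the stage comparisons are shown as windows of 30 coding bases around 1 differing base, in capitals. Rpl26 differs from Gm15772 at 2 of 435 coding bases, Rps2 from Rps2-ps13 at 7 of 879, and Rplp0 from Gm8730 at 12 of 951, and their longest identical stretches are 176, 302 and 167 bases. The windows lie at chr11:68903284-68903313 (plus strand) for Rpl26, chr5:3236704-3236733 (plus) for Gm15772, chr17:24720321-24720350 (plus) for Rps2, chrX:52898633-52898662 (plus) for Rps2-ps13, chr5:115560744-115560773 (plus) for Rplp0 and chr8:102865712-102865741 (minus) for Gm8730.
Rpl26: ggcacaaccgtccaTgtgggcatccacccc
Gm15772: ggcacaaccgtccaCgtgggcatccacccc
Rps2: ggcccaggattaggTggccgcggcggcttc
Rps2-ps13: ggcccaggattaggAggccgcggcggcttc
Rplp0: cttttggatgattaTccaaaatgcttcatt
Gm8730: cttttggatgattaCccaaaatgcttcatt

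Rpl26, a large-subunit protein near the exit tunnel, stood at 2768, 2721 and 2636 TPM at E3.5, 1306, 1263 and 1389 TPM at E4.5, 1098, 1027 and 969.1 TPM at E5.5, 1092, 1157 and 1115 TPM at E6.5, and 2375, 2415 and 2443 TPM at E7.5. Gm15772 stood at 58.74-86.14 TPM at E3.5, 2102-2173 TPM at E4.5, 2485-2820 TPM at E5.5, 2515-2674 TPM at E6.5 and 730.5-753.4 TPM at E7.5, so that the copy was high where the member was low. Their sum with the other copies was 2888 ± 33.0 TPM at E3.5 (SD, n = 3), 3590 ± 108 at E4.5, 3857 ± 64.9 at E5.5, 3884 ± 57.7 at E6.5 and 3274 ± 44.2 at E7.5. The Rpl26 row alone fell by 1.04 at E4.5 (adjusted p = 5.07e-08) and rose by 1.10 at E7.5 (adjusted p = 5.32e-08). With its copies the direction turned at both steps, to 0.31 (adjusted p = 0.000931) and -0.25 (adjusted p = 0.00548).

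Rps2, of the small-subunit mRNA entry, stood at 1285, 1319 and 1354 TPM at E4.5, 498.6, 535.8 and 544.7 TPM at E5.5, 406.5, 368.1 and 370.1 TPM at E6.5, and 668.2, 733.7 and 708.5 TPM at E7.5. Its copy Rps2-ps13 was higher where it was lower, and went from 45.06-55.99 TPM at E4.5 to 486.3-531.6 TPM at E5.5. With all 46 copies, Rps2 stood at 1761 ± 103 TPM at E4.5 (SD, n = 3), 1962 ± 89.9 at E5.5, 1968 ± 253 at E6.5 and 1838 ± 54.6 at E7.5. The differences of the row alone, -1.32 at E5.5 (adjusted p = 6.66e-09), -0.46 at E6.5 (adjusted p = 0.00275) and 0.88 at E7.5 (adjusted p = 1.19e-06), became 0.16 (adjusted p = 0.164), 0.00 and -0.09 (adjusted p = 0.431).

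Rplp0, the base of the ribosomal stalk, stood at 1091, 1034 and 1078 TPM at E3.5 and at 2561, 2451 and 2293 TPM at E4.5. Gm8730 went the other way between the same stages, from 599-792.2 to 62.72-137.7 TPM, and stood at 1004-1369 TPM at E5.5. The rise of Rplp0 at E4.5 was 1.19 (adjusted p = 1.1e-08) alone and 0.47 with copies (adjusted p = 0.0013), and the fall of 0.39 at E5.5 (adjusted p = 0.000315) turned to a rise of 0.29 (adjusted p = 0.0204). Rpl29, a small basic large-subunit protein, had the largest fall of a standard member, 1.62 at E4.5 (adjusted p = 3.83e-09), from 1220, 1058 and 1278 to 380.6, 390.2 and 383.7 TPM. Its 56 copies summed to 966.7 ± 39.9 TPM at E3.5 and 2133 ± 173 TPM at E4.5, and with them the difference was 0.23 (adjusted p = 0.206). Of the 4, Rplp0 at E4.5 kept its direction and call with copies.

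**Figure D3:**
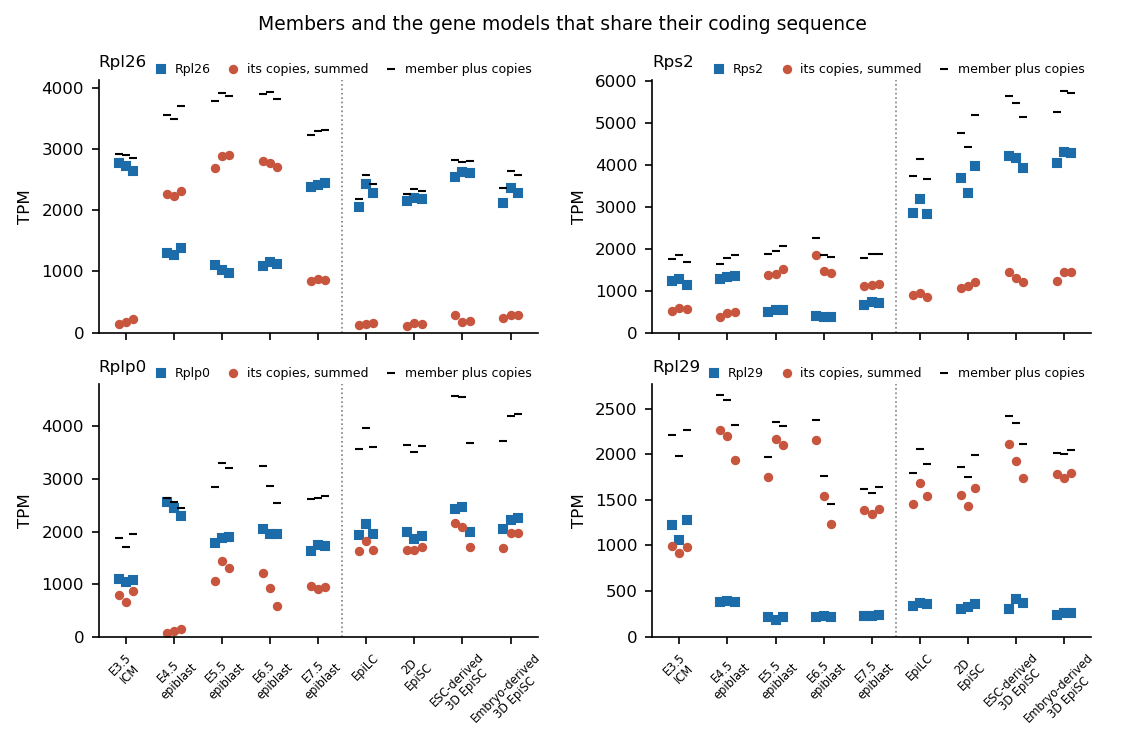
TPM of Rpl26, Rps2, Rplp0 and Rpl29 (blue squares), of the sum of their near-identical copies (red circles) and of both together (black dashes) in the 27 libraries. Rpl26 falls from 2708 to 1319 TPM on average between E3.5 and E4.5 while its copies go from 180 to 2270 TPM, and the total moves from 2888 to 3590 TPM.

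The first step in vivo compared the libraries labeled E4.5 epiblast with the E3.5 ICM. Per the methods, isolation changes at this step and the mouse line may change, so that neither can be told apart from stage. Of the 75 members tested, 20 rose and 4 fell, beside 21% and 33.8% of all 11880 genes. The median log2 difference of the members was 0.11 and that of all genes -0.10. Libraries did not overlap for 29 members that were higher and 9 that were lower at E4.5, beside 22.9% and 35.7% of all genes. Rplp1 rose by 0.57 (SE 0.12, adjusted p = 0.000939), from 3674, 3300 and 3718 to 5334, 5459 and 5050 TPM, and Rps13 by 0.51 (SE 0.12, adjusted p = 0.00328). Rplp2, which pairs with Rplp1 in the stalk, rose by 0.29 (adjusted p = 0.0282), Rps19, mutated in Diamond-Blackfan anemia, by 0.30 (adjusted p = 0.00352), and Rpl38, known for patterned expression in the embryo, by 0.34 (adjusted p = 0.0232). Rps18, at the head of the small subunit, fell by 0.44 (adjusted p = 0.000777). With median-of-ratios scaling 38 were higher. The shares of all genes given here and below are those of the fit without rescaling. They are not a baseline for counts under other scalings. With copies summed, 19 of the 24 calls were kept, Rpl17, Rpl29, Rps15 and Rps19 were not called, and Rpl26 turned. Leaving out single libraries moved the count of higher members to 11-22: it was 13 and 12 without E4.5 replicates 2 and 3, and 11 and 12 without E3.5 replicates 1 and 3. The trophectoderm list stood near the same sum at both stages, but of its 7 markers tested 3 rose and 3 fell. Of 10 primitive and visceral endoderm markers 1 rose and 6 fell, and their sum went from 521.8-534 to 155.1-181.8 TPM. The part of either list in these differences was not tested.

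From E4.5 to E5.5, across implantation, 7 members rose and 18 fell, beside 38.9% and 22.8% of all genes. The member median was -0.07 and that of all genes 0.16. Libraries did not overlap for 14 members higher and 23 lower at E5.5, beside 40.4% and 23.8%. Besides Rpl10l, Rpl39l, Rps2 and Rpl29, the largest falls were of Rps29 (0.64, adjusted p = 0.00274), a zinc-binding small-subunit protein, Rps18 (0.57, adjusted p = 6.33e-05), Rpl34 (0.57, adjusted p = 3.91e-05) and Rps26 (0.56, adjusted p = 0.000518), at the mRNA exit. Rps26 went from 1238, 1359 and 1415 to 901.1, 870.3 and 946.1 TPM, with no overlap. Rpl38 fell by 0.36 (adjusted p = 0.0168) and Rpsa by 0.27 (adjusted p = 0.0353). Rps20 rose by 0.36 (adjusted p = 0.00746), Rpl35 by 0.34 (adjusted p = 0.00965), Rps6, the substrate of S6 kinase, by 0.31 (adjusted p = 0.00939), and Rps19 by 0.26 (adjusted p = 0.00658). The rises were lost under other scalings: no member rose, and 34 fell, with median-of-ratios scaling, as did 30 when TPM were scaled to the other protein-coding genes. With copies, 17 of the 25 calls were kept, 7 were not called (Rpl15, Rpl26, Rpl29, Rpl35a, Rps2, Rps20 and Rps24) and Rplp0 turned. The count of higher members was 4 without E5.5 replicate 3. The methods give different RNA fragmentation for E3.5 and E4.5 than for the later stages, so that stage and fragmentation cannot be told apart at this step. Isolation also changes here and the mouse line may change, and neither can be told apart from stage. All 7 trophectoderm markers tested fell here, and their list went from 2774-2952 to 331-365.2 TPM, while 6 of 10 endoderm markers rose and 1 fell. Their part was not tested.

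From E5.5 to E6.5, 5 members rose and 3 fell, beside 3.89% and 6.95% of all genes, with medians of 0.09 for the members and -0.06 for all genes. Libraries did not overlap for 18 members higher and 7 lower, beside 10.8% and 20.5%. Among them, Rps14 rose by 0.43 (adjusted p = 0.0335), Rpl9 by 0.41 (adjusted p = 0.0274), Rps27 by 0.39 (adjusted p = 0.0185) and Rps18 by 0.33 (adjusted p = 0.0295). Rpl10l and Rps2, described above, were among those that fell. With median-of-ratios scaling 12 were higher. Rps14 lost its call without any 1 of 5 of the 6 libraries, Rpl9 without any 1 of 4, and Rps27 without E5.5 replicate 2. Fitting only the 2 stages left 0 higher and 1 lower, with 16 members at an unadjusted p under 0.05 by limma. Single higher calls remained without E6.5 replicate 3, E5.5 replicate 1 or E5.5 replicate 2, and 3 without E5.5 replicate 3. Of the endoderm markers 6 of 10 rose at this step, and of the streak markers 5 of 6, and their part was not tested.

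From E6.5, where the study places the onset of gastrulation, to E7.5, 46.5% of all genes rose and 6.87% fell. The all-gene median moved by 0.31. Of the members, 5 rose and 6 fell, with a median of 0.04, which turned to -0.30 with median-of-ratios scaling (2 higher, 45 lower) and to -0.13 when scaled to the other protein-coding genes (2 higher, 17 lower). Libraries did not overlap for 9 members higher and 10 lower, beside 54% and 8.8% of all genes. Rps24 rose by 0.37 (adjusted p = 0.00792), from 1703, 1863 and 2093 to 2288, 2564 and 2446 TPM, Rps20 by 0.35 (adjusted p = 0.0115) and Rpl38 by 0.30 (adjusted p = 0.0436), besides Rpl26 and Rps2. Rpl22, an RNA-binding protein known for its role in T cell development, fell by 0.49 (adjusted p = 0.0111), from 1228, 1410 and 1269 to 846.3, 1199 and 784.8 TPM, a call that was lost without E7.5 replicate 3 (adjusted p = 0.0583). Rplp1 fell by 0.33 (adjusted p = 0.0274), Rpl35a by 0.39 (adjusted p = 0.00658) and Rplp0 by 0.22 (adjusted p = 0.0211). With copies, 5 of the 11 calls were kept, and Rpl35a, Rpl38, Rplp0, Rps2 and Rps20 were not called. Without E6.5 replicate 3 the count of higher members was 16. Of the 8 epiblast markers 7 fell, of the 6 streak markers 3 rose and 3 fell, and of the 7 trophectoderm markers tested 4 rose and 1 fell, and their part was not tested.

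**Figure D4:**
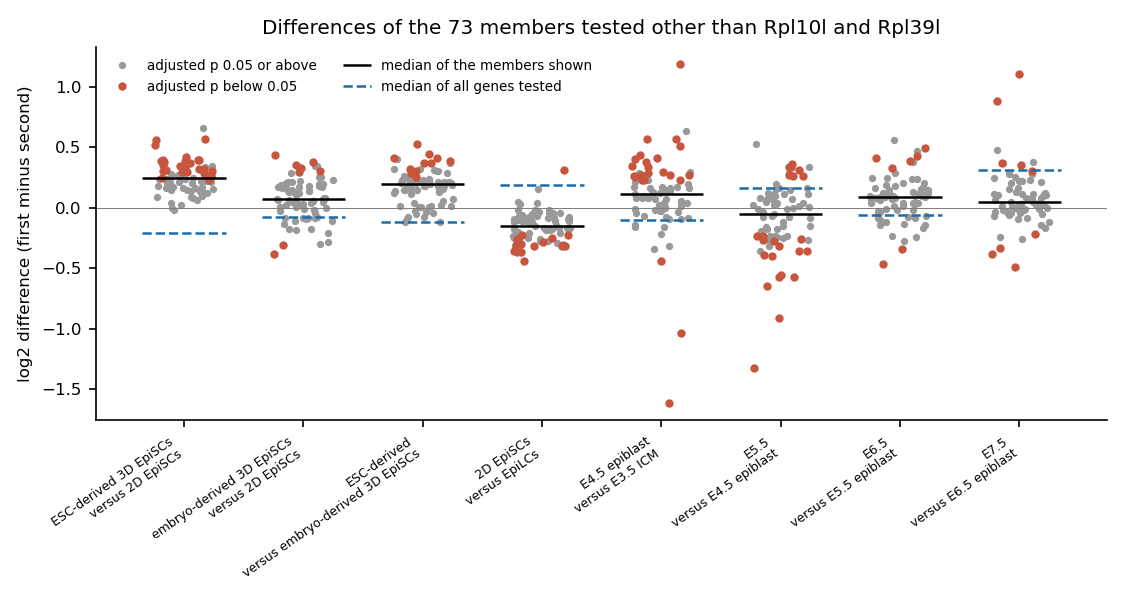
log2 differences of the 73 members tested other than Rpl10l and Rpl39l in the 8 comparisons, first group minus second; red points passed an adjusted p of 0.05, black lines are member medians and dashed blue lines medians of all genes tested. Members stand above the all-gene median in the 3D comparisons, at E4.5 and at E6.5, and below it in 2D EpiSCs against EpiLCs, at E5.5 and at E7.5, and the points beyond 1 in size are Rplp0, Rpl26, Rpl29 and Rps2.

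In culture, the first question was how 3D EpiSCs differ from 2D EpiSCs. In ESC-derived 3D EpiSCs, 28 of 75 members were higher than in 2D EpiSCs and none lower, beside 9.56% and 35.9% of all 11541 genes. The member median was 0.24 and the all-gene median -0.21. The groups stood apart for 49 members, all higher in 3D, beside 13.9% of all genes higher and 42.8% lower. Among the larger rises were those of Rplp1 (0.57, SE 0.13, adjusted p = 0.00437), Rps27 (0.52, SE 0.12, adjusted p = 0.00645) and Rpl7a (0.42, SE 0.10, adjusted p = 0.00547), each kept when any 1 of the 6 libraries was left out. Rps27 went from 1531, 1723 and 1695 TPM in 2D to 2445, 2582 and 2073 TPM in 3D. The groups stood apart, with replicate 3 the lowest of the 3D libraries. Rplp2 rose by 0.37 (adjusted p = 0.0314), Rpl38 by 0.39 (adjusted p = 0.0289), Rpl11, which binds Mdm2 when ribosome assembly is disturbed, by 0.27 (adjusted p = 0.032), and Rpsa by 0.26 (adjusted p = 0.042). With median-of-ratios scaling 64 were higher, and with copies 34 were higher and none lower. Without ESC-derived 3D replicates 1 and 2 the count was 9 and 7, without 2D replicates 1, 2 and 3 it was 10, 11 and 17, and without ESC-derived 3D replicate 3 it was 41. Some replicate pairs were near-identical, with a median absolute log2 difference under 0.1 over the genes tested (ESC-derived 3D replicates 1 and 2, embryo-derived 3D replicates 2 and 3, and 2D replicates 1 and 2). With each such pair averaged into 1 sample, no member was called in any of the 3 comparisons with 3D EpiSCs by limma, with 7, 3 and 8 members at an unadjusted p under 0.05. The marker lists moved with this comparison: the endoderm list summed to 47.43-64.17 TPM in 2D and 0.825-14.01 TPM in ESC-derived 3D EpiSCs, the trophectoderm list to 568-728.4 and 243.9-368.9 TPM, and the streak list to 96.85-112.5 and 38.34-69.38 TPM. Of the 8 trophectoderm genes, 3 stayed below 1 TPM in 2D and 4 in ESC-derived 3D EpiSCs. Cdx2 was among them, at 0-0.034 and 0-0.159 TPM. The sums alone do not show that trophectoderm cells were present. The part of these lists in the differences was not tested.

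In embryo-derived 3D EpiSCs, 6 members were higher and 2 lower than in the 2D cells, beside 9.83% and 22.9% of all genes, with medians of 0.07 and -0.08. Medium, dimension, origin and genetic background all change in this comparison and cannot be told apart. There was no overlap for 23 members higher and 9 lower, beside 20.9% and 37.3%. Rpl12, at the stalk base, rose by 0.43 (SE 0.10, adjusted p = 0.00821), a call kept when any 1 of the 6 libraries was left out. Rps12 rose by 0.37 (adjusted p = 0.012), Rpl34 by 0.35 (adjusted p = 0.0229) and Rpsa by 0.30 (adjusted p = 0.027). Rps12 lost its call without any 1 of 3 of the 6 libraries and Rpl34 without any 1 of 4, and Rps13, at 0.33, lost it whichever library was left out. Rpl29 fell by 0.38 (adjusted p = 0.0284) and Rpl23a by 0.31 (adjusted p = 0.0286), calls that were lost without any 1 of 5 and of all 6 libraries, and with copies summed these became 0.12 (adjusted p = 0.347) and -0.03. Rps15a, not called alone (0.34, adjusted p = 0.488), rose by 1.15 with its copies (adjusted p = 0.013), which summed to 410.2 ± 91.4 TPM in embryo-derived 3D EpiSCs and 59.2 ± 7.2 TPM in 2D EpiSCs. The count of higher members fell to 1 without embryo-derived 3D replicate 2 or 3 or without 2D replicate 1, and to 2 without 2D replicate 2. With median-of-ratios scaling 13 were higher and 0 lower. The endoderm list summed to 12.75-26.15 TPM and the trophectoderm list to 191.6-217.4 TPM in the embryo-derived cells, both below 2D EpiSCs. Of the 8 trophectoderm genes, 4 stayed below 1 TPM in the embryo-derived cells, among them Cdx2 (0-0.053 TPM). The part of these lists was not tested.

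Between the 3D EpiSCs, 11 members were higher in the ESC-derived cells and none lower, beside 6.55% and 14.6% of all genes, with medians of 0.19 and -0.12. The libraries stood apart for 28 members, all higher in ESC-derived cells, beside 13% of all genes higher and 26.2% lower. Rpl29 was higher by 0.53 (adjusted p = 0.0113), Rps26 by 0.45 (adjusted p = 0.0189), Rps25, which is needed at some internal ribosome entry sites, by 0.41 (adjusted p = 0.0405), Rpl37a by 0.41 (adjusted p = 0.0273) and Rpl13a, the subunit of the interferon-dependent GAIT complex, by 0.38 (adjusted p = 0.0183). Rps26 stood at 2884, 3085 and 2478 TPM against 2137, 2038 and 1995 TPM. Rps26 and Rpl37a lost their calls without any 1 of 4 of the 6 libraries, Rps25 without any 1 of 5, and Rpl29 without ESC-derived 3D replicate 2. The X-linked Rpl36a was higher by 0.34 (adjusted p = 0.0329). The count was 19 with median-of-ratios scaling. It was 0 without ESC-derived 3D replicate 2, and 25 without ESC-derived 3D replicate 3. It was 3, 5, 3 and 2 without ESC-derived 3D replicate 1 and embryo-derived 3D replicates 1, 2 and 3. With copies, 5 of the 11 were kept, and Rpl15, Rpl21, Rpl23a, Rpl27a, Rpl29 and Rpl35 were not called. These 3 comparisons share their libraries in pairs and are not independent of each other.

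From EpiLCs to 2D EpiSCs, 18 members fell and 1 rose, beside 18.7% and 39.9% of all genes, with medians of -0.16 and 0.18. The groups did not overlap for 33 members lower and 1 higher in 2D EpiSCs, beside 22% and 45.5%. After Rpl10l and Rpl39l, the largest fall was of Rpl21, which stood at 937, 956.4 and 1034 TPM in EpiLCs and at 685.4, 733.6 and 732.3 TPM in 2D EpiSCs, without overlap (0.44, SE 0.08, adjusted p = 0.000654). Rpl13 fell by 0.37 (adjusted p = 0.0259), a call lost without any 1 of 4 of the 6 libraries, Rpl13a by 0.29 (adjusted p = 0.0228) and Rplp2 by 0.31 (adjusted p = 0.0493). Rps2 rose by 0.31 (adjusted p = 0.0149) and lost its call without 2D replicate 3 (0.24, adjusted p = 0.0614). All 19 calls were kept with copies summed. The count of lower members was 5 and 9 without 2D replicates 1 and 2 and 10 and 12 without EpiLC replicates 2 and 3, and it was 3 (Rpl10l, Rpl39l and Rpl21) with near-identical replicates averaged. With median-of-ratios scaling 56 were lower and 0 higher. The endoderm list went from 1.69-2.329 TPM in EpiLCs to 47.43-64.17 TPM in 2D EpiSCs and the trophectoderm list from 43.47-64.55 to 568-728.4 TPM. Of the 8 trophectoderm genes, 3 stayed below 1 TPM in each group, among them Cdx2 (0.028-0.266 TPM in EpiLCs and 0-0.034 TPM in 2D EpiSCs). The part of these lists was not tested.

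Differences among members were also tested after scaling each library by the geometric mean of its members. Members entered this mean if they were tested and above 2 TPM in every library of the fit. In ESC-derived 3D against 2D EpiSCs 2 calls were then made in place of 28, and in ESC-derived against embryo-derived 3D EpiSCs 2 in place of 11. In 2D EpiSCs against EpiLCs there were 5 in place of 19, among them Rpl10l, Rpl39l and Rpl21 lower and Rps2 higher. In vivo there were 7 higher and 9 lower at E4.5, 13 and 12 at E5.5, 3 and 4 at E6.5, and 4 and 7 at E7.5, where 20 and 4, 7 and 18, 5 and 3, and 5 and 6 had been called before.

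Among 76 tested ribosome biogenesis factors, which process rRNA and assemble the subunits, 62 fell and 2 rose in 2D EpiSCs against EpiLCs (median -0.46). Of all genes 18.7% fell and 39.9% rose. Among the factors that fell were Utp4 (-1.11, adjusted p = 8.62e-06), of the small-subunit processome, and Nop2 (-1.05, adjusted p = 0.000271), an rRNA methyltransferase. At E4.5 45 rose and 2 fell (median 0.34), beside 21% and 33.8% of all genes. Among those that rose were Gar1 (0.96, adjusted p = 1.59e-06), of the box H/ACA particles, Lyar (0.97, adjusted p = 1.78e-05) and the helicase Ddx21 (0.74, adjusted p = 2.65e-06). In ESC-derived and embryo-derived 3D EpiSCs 34 and 37 were higher than in 2D, with 1 and 0 lower. Of all genes 9.56% and 9.83% were higher and 35.9% and 22.9% lower. The counts of higher factors became 1 and 5 with near-identical replicates averaged. Rrp12, of subunit export, was higher in both, by 0.50 (adjusted p = 0.00268) and 0.84 (adjusted p = 9.81e-05). At E5.5 20 rose and 4 fell (26.3% and 5.26%, beside 38.9% and 22.8% of all genes), which turned to 12 higher and 17 lower with median-of-ratios scaling. At E6.5 none rose and 7 fell (9.21%), beside 3.89% and 6.95% of all genes. At E7.5 5 rose and 10 fell (6.58% and 13.2%, beside 46.5% and 6.87%), the latter becoming 52 lower with median-of-ratios scaling.

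Of 78 mitochondrial ribosomal protein genes, which build the ribosome of the mitochondrion, 41 rose and 2 fell from 2D EpiSCs to the ESC-derived 3D cells. To the embryo-derived ones 21 rose and 3 fell. Of all genes 9.56% rose and 35.9% fell in the first comparison, and 9.83% and 22.9% in the second. In 2D EpiSCs against EpiLCs 6 rose and 26 fell (7.69% and 33.3%, beside 39.9% and 18.7% of all genes). At E4.5 2 rose and 17 fell (2.56% and 21.8%, beside 21% and 33.8% of all genes). Among 6 ribosomal protein genes outside the symbol rule, 2 rose and 1 fell at E4.5, beside the same shares. At E5.5 1 rose and 1 fell, beside 38.9% and 22.8% of all genes. Of these 6 genes, Rpl22l1, the paralogue of Rpl22, rose by 0.81 at E4.5 (adjusted p = 0.00287). Of 18 tested mRNAs with a terminal oligopyrimidine tract that code for other proteins, 10 rose and 1 fell at E5.5 (55.6% and 5.56%, beside 38.9% and 22.8% of all genes). From 2D to ESC-derived 3D cells 8 rose and 1 fell (44.4% and 5.56%, beside 9.56% and 35.9%). From EpiLCs to 2D cells 2 rose and 4 fell (11.1% and 22.2%, beside 39.9% and 18.7%). Of 33 cytosolic initiation factors, 10 and 8 were higher in the 3D EpiSCs than in 2D (1 and 0 lower), and 3 rose and 8 fell in 2D EpiSCs from EpiLCs. Of 30 genes of RNA polymerase I and its regulators, 6 rose and 13 fell in the latter comparison, among them Polr1b, a core subunit (-0.89, adjusted p = 3.8e-05).

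**Figure D5:**
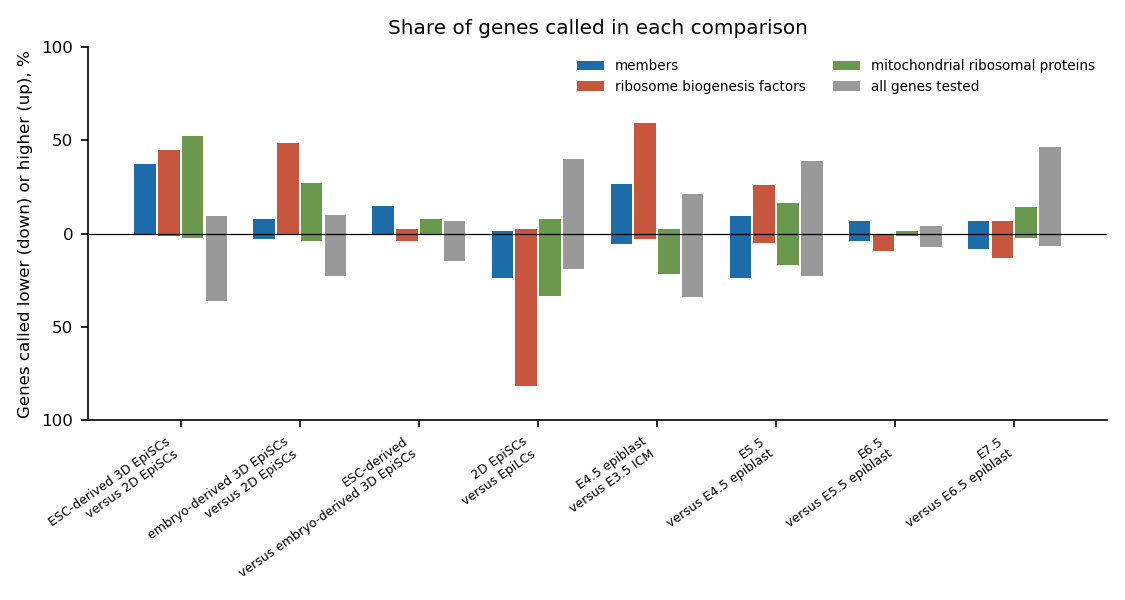
Share of genes called at adjusted p below 0.05, higher (above 0) or lower (below 0), in the 8 comparisons for the members, ribosome biogenesis factors, mitochondrial ribosomal proteins and all genes tested. In 2D EpiSCs against EpiLCs 62 of 76 biogenesis factors and 18 of 75 members are lower, beside 18.7% of all genes lower and 39.9% higher.

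Of the 75 autosomal protein-coding members tested, few passed both the adjusted p and a log2 difference of 1. At E4.5 these were 1 higher (Rplp0) and 3 lower (Rpl29, Rpl10l and Rpl26), beside 5.88% and 11.9% of all genes. At E5.5 none was higher and 3 were lower (Rpl39l, Rpl10l and Rps2), beside 14.9% and 9.47%. At E7.5 1 was higher (Rpl26) and 2 were lower (Rpl10l and Rpl39l), beside 10.6% and 1.94%. In 2D EpiSCs against EpiLCs none was higher and 2 were lower (Rpl10l and Rpl39l), beside 15.2% and 5.14%. None of the 75 passed by limma at E6.5 (0.715% and 0.48% of all genes), in ESC-derived 3D against 2D EpiSCs (0.633% and 9.25%), in embryo-derived 3D against 2D EpiSCs (1.07% and 7.75%) or between the 3D EpiSCs (1.98% and 1.98%), where 20, 40, 15 and 22 members had an unadjusted p under 0.05. The pseudogene member Rps4l, tested in the fit of all genes past the filter, passed both in all 4 culture comparisons and at E7.5, with the values given above and a rise of 1.03 from 2D to ESC-derived 3D EpiSCs (adjusted p = 0.0337).

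Culture and embryo levels are given side by side without a test. Mean log2 levels were higher in vitro for 71 of the 83 members. The share of all genes higher in vitro was not determined, so this count cannot be read as particular to the members. Among the wider gaps were those of Rps2 (2.31), Rps25 (2.14), Rps27l (2.07), Rps16 (1.83) and Rpl9 (1.80). That of Rps2 depends on its copies, since with them the group means were 1761-1968 TPM in vivo and 3854-5583 TPM in vitro. The members lower in vitro included Rpl10l (-2.17), Rps4l (-1.76), Rpl22 (-1.05), Rpl34 (-0.87), Rplp2 (-0.86) and Rplp1 (-0.62). Rps25 ran from 331.8 to 714.3 TPM in vivo and from 1470 to 2443 TPM in vitro, with no overlap. Rplp2 ran from 1458 to 2098 TPM in vivo and from 782.2 to 1211 TPM in vitro. The summed TPM of large-subunit over small-subunit symbols was 1.76-1.91 in vivo and 1.32-1.41 in vitro. Autosomal protein-coding genes held 55.3-66.1% of TPM in vivo and 80.1-85.1% in vitro.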

How the data were processed

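Per the study's methods, adapters were removed (cutadapt 2.4), STAR placed the reads on mm10, and StringTie estimated levels. The authors deposited 1 table of TPM for 27 bulk libraries of the 35 samples of the series. Each column sums to 1000000, so sequencing depth is unknown and the precision it would give cannot be stated. No counts were used here, and the count model named in the study's methods was replaced by limma 3.58.1 (R 4.3.3) on log2(TPM + 1). A fold change on this scale understates changes of low genes.

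Autosomal protein-coding genes above 2 TPM in at least 3 libraries were tested, 11541 in vitro and 11880 in vivo, with Benjamini-Hochberg adjustment over all of them and an adjusted p below 0.05 as threshold. Of the members, 75 of 76 autosomal protein-coding ones passed in each fit. X-linked members and pseudogenes were tested in a fit of all genes past the filter. Copies were found with BLAST 2.17.0 from GENCODE vM21 transcripts. The script was tested on simulated data for ESC-derived 3D against 2D EpiSCs (11541 genes), where it recovered 96 of 100 changes of 1.5 and 25 of 100 changes of 0.5 on the log2 scale.

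The members and gene lists were chosen with earlier results of these data known. Named genes were members with symbols ending in l and their relatives, the 5 highest and 5 lowest standard members, up to 4 called members in each direction per comparison by size, X-linked members, members with known special roles, and up to 3 called genes per direction of each companion list. Some genes that this rule names are not reported here. Rps29, Rps18, Rpl34 and Rps26 at E5.5, Rps15a with its copies, and other called members named outside these limits were chosen after their values were seen. Alternatives were another pseudocount (0.1), scalings, filters, sets of libraries, a replicate block and leaving out each library.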

Additional observations from a re-analysis of the deposited data

How the results depend on the processing

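Counts are members higher and lower at an adjusted p below 0.05. The shares of all genes called under these settings are not given here. A changed count therefore cannot be read as particular to the members. With median-of-ratios scaling they became 64 higher (ESC-derived 3D against 2D EpiSCs, median 0.465), 13 and 0 (embryo-derived 3D against 2D), 19 higher (ESC-derived against embryo-derived 3D), 0 and 56 (2D EpiSCs against EpiLCs, median -0.39), 38 higher (E4.5, median 0.232), 0 and 34 (E5.5, median -0.221), 12 higher (E6.5), and 2 and 45 (E7.5, median -0.297). Scaling to the other protein-coding genes gave 0 and 30 at E5.5 (median -0.197) and 2 and 17 at E7.5 (median -0.133). With near-identical replicates averaged, the 3 comparisons with 3D EpiSCs held 0 calls and 2D EpiSCs against EpiLCs 0 and 3. For embryo-derived 3D against 2D EpiSCs, 10 were higher with no filter, 10 and 5 with only both groups fitted, 12 with all 27 libraries in 1 fit, and 11 with an intensity trend. Only both groups fitted gave 4 higher between the 3D EpiSCs, 0 and 1 at E6.5, and 3 higher at E7.5, and the trend gave 8 higher at E6.5 and 9 at E7.5. The causes were not tested.

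With copies summed, chosen after seeing the data, 1 was lower in embryo-derived 3D against 2D EpiSCs, 5 higher between the 3D EpiSCs, 2 lower at E4.5 and 1 higher at E7.5. The log2 difference then turned for Rpl29 (0.226) and Rpl26 (0.313) at E4.5, Rpl15 (-0.04) and Rps2 (0.156) at E5.5, Rpl26 (-0.246), Rps2 (-0.091) and Rpl35a (0.051) at E7.5, and Rpl29 (0.119) in embryo-derived 3D against 2D EpiSCs.

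The 76 autosomal protein-coding members were also summed as a share of autosomal protein-coding TPM. This share was 14.4% at E3.5, 15.9% at E4.5, 14% at E5.5, 14.8% at E6.5 and 13.7% at E7.5. In culture it was 16.9% in EpiLCs, 15.1% in 2D, 17.8% in ESC-derived 3D and 16% in embryo-derived 3D EpiSCs. With median-of-ratios scaling the summed level of all 83 members was 10.3% at E4.5, 9.65% at E6.5, 7.87% at E7.5, 11.9% in 2D and 16.6% in ESC-derived 3D EpiSCs.

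Leaving out each library gave 7 to 41 higher in ESC-derived 3D against 2D EpiSCs, 1 to 7 higher and 0 to 1 lower in embryo-derived 3D against 2D, 0 to 25 higher between the 3D EpiSCs, 0 to 1 higher and 5 to 19 lower in 2D EpiSCs against EpiLCs, 11 to 22 higher at E4.5, 4 to 9 higher and 13 to 20 lower at E5.5, 1 to 7 higher and 1 to 3 lower at E6.5, and 4 to 16 higher and 4 to 7 lower at E7.5. Where this left 2 libraries in a group, the spread was pooled over the fit.

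With a replicate block, the counts were 28 and 0, 5 and 2, 10 and 0, and 1 and 15 in culture, and 20 and 4, 7 and 18, 5 and 3, and 7 and 6 in vivo, in the order used above. Deviations of same-numbered libraries correlated by -0.030 on average in vitro and -0.017 in vivo, so the numbers do not pair the libraries.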
